A study of Mus musculus with 8 samples.

Results

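The genes described here are 10 members of the Sox group: Sox1, Sox2, the long noncoding transcript Sox2ot, Sox3, Sox4, Sox8, Sox9, Sox10, Sox11 and Sox21. They were chosen by name out of 18842 genes with a symbol on the array. Every probe whose accession maps to one of them in RefSeq is shown: 20 of the 41174 probes that were not controls, for 9 of the 10 genes. No probe was found for Sox3. RNA came from N31, a line of mouse neural progenitor cells (NPC) that was made from embryonic stem cells, and each sample was hybridised with a single dye to an Agilent whole mouse genome array. Of the 4 groups of 2 arrays, the first was cells expressing W20 taken 72 h after reprogramming began, and the second was control cells expressing the fluorescent protein EGFP at the same time. The remaining groups were W20 cells and EGFP cells as NPC, without reprogramming. All NPC grew with EGF and bFGF at 10 ng/ml. During reprogramming Dox was present throughout at 40 ng/ml, and the cells spent 48 h in the NPC medium before 24 h in GMEM with 10% KSR, LIF at 1000 U/ml, ACTH, pyruvate, nonessential amino acids and 2-mercaptoethanol. The title concerns faster reprogramming through proteins of bacteria, and the design text asks what forced W20 expression does to gene expression. The labels do not name the reprogramming factors, what Dox controlled, the promoters used, or whether cells were clonal or replicates came from separate cultures, so a p-value here reflects the spread of arrays, which may be technical.

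Sox proteins bind DNA through an HMG box and usually act together with a partner factor. Sox1, Sox2 and Sox3 form the SoxB1 group, which keeps neural progenitors undifferentiated, and Sox2 also holds the pluripotent state together with Oct4. Sox21 is a SoxB2 repressor that opposes SoxB1 activity in neural cells. Sox4 and Sox11 are SoxC factors of the step to neurons, and Sox8, Sox9 and Sox10 are SoxE factors of glia and neural crest, with Sox9 also needed for neural stem cells. Sox2ot is transcribed from a span on chromosome 3 that contains Sox2. Sox2 is a factor of the common reprogramming mixtures, so a probe for it could in principle read an introduced copy as well as the cell's own gene.

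The upstream sequences of Sox2, Sox11 and Sox21 are shown because Sox2 and Sox11 were both lower in W20 NPC and both rose over 72 h in W20 cells, while Sox21 rose in both kinds of cells without a call for W20 at 72 h. Each is the 250 bases before the annotated start in RefSeq (GRCm38.p6), 5′ to 3′ on the gene's strand. Sox2 lies at chr3:34649745-34649994 on the plus strand, Sox11 at chr12:27342719-27342968 on the minus strand and Sox21 at chr14:118237031-118237280 on the minus strand. Capitals mark matches, on either strand, to ACAAAG (a Sox core), CCAAT (the box of that name), the GC box GGGCGG, the POU octamer ATGCAAAT or the TATA box TATAAA. No match overlapped another.
Sox2: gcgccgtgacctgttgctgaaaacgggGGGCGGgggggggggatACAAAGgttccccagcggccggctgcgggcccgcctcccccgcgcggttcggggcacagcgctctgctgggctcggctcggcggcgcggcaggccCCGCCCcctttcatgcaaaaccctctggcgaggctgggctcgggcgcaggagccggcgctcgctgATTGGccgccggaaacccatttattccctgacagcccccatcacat
Sox11: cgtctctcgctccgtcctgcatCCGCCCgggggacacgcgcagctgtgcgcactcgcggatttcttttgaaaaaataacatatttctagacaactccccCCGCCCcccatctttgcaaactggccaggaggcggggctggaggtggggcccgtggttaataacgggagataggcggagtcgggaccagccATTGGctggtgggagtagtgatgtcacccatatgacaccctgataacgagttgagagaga
Sox21: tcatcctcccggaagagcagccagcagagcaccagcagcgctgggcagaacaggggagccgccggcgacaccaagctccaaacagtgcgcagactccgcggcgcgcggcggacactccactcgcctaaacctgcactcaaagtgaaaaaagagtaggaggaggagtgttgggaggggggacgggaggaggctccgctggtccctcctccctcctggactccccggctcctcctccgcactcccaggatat
The Sox2 window held 1 match to ACAAAG, 206 bases before the start, which 16.5% of 32851 promoter windows of this length share. Sox2 and Sox11 each held 1 CCAAT match, found in 33.8% of windows, and 2 GC box matches, found in 32.7%. The Sox21 window held none of the 5 motifs. The octamer, present in 1.6% of windows, and TATAAA, in 12.4%, were in none of these windows. A match describes the letters only.

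Levels are given as log2 of the background-corrected signal minus the array's 75th percentile, so a level of 0 is a signal equal to that percentile, and levels of different probes are not compared. The 75th percentile was 827 to 938 intensity units, and 57.0% to 62.4% of spots were well above background. Replicate arrays correlated with r of 0.9984 to 0.9988 over 22027 probes, and the median SD between replicates was 0.035 to 0.045. Differences were tested with limma over the 25725 probes kept, those which both arrays of some group measured well above background, with Benjamini-Hochberg adjustment and a threshold of 0.05. Of the 20 Sox probes 17 were tested. Both Sox8 probes and the Sox10 probe A_52_P192625 were well above background on 0 of 8 arrays. Of 8 neural progenitor markers, 7 (Nes, Sox2, Pax6, Fabp7, Vim, Msi1 and Notch1) were well above background on both arrays of each 72 h group and 6 on both arrays of each NPC group. Nr2e1 was the one missing throughout. Fabp7 passed the filter through its 72 h signal, and was well above background on 0 of 2 W20 NPC arrays and 1 of 2 EGFP NPC arrays. The summed level of the 8 was 7.10 to 7.15 in W20 cells and 7.08 to 7.26 in EGFP cells at 72 h, against 7.11 to 7.24 in W20 NPC and 6.93 to 7.05 in EGFP NPC. That sum is nearly all Vim, an intermediate filament gene of many cell types, at 6.99 to 7.05 in W20 cells and 6.98 to 7.17 in EGFP cells at 72 h, against 6.99 to 7.13 in W20 NPC and 6.82 to 6.94 in EGFP NPC. Other markers of the list moved in opposite directions over 72 h: Pax6 rose by 2.19 in W20 cells and 2.01 in EGFP cells, and Notch1 fell by 1.03 in W20 cells and fell by 0.98 in EGFP cells. W20 arrays held the same 2 positions on both slides and each slide held 1 stage, so position and W20, and slide and stage, cannot be told apart.

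**Figure D1:**
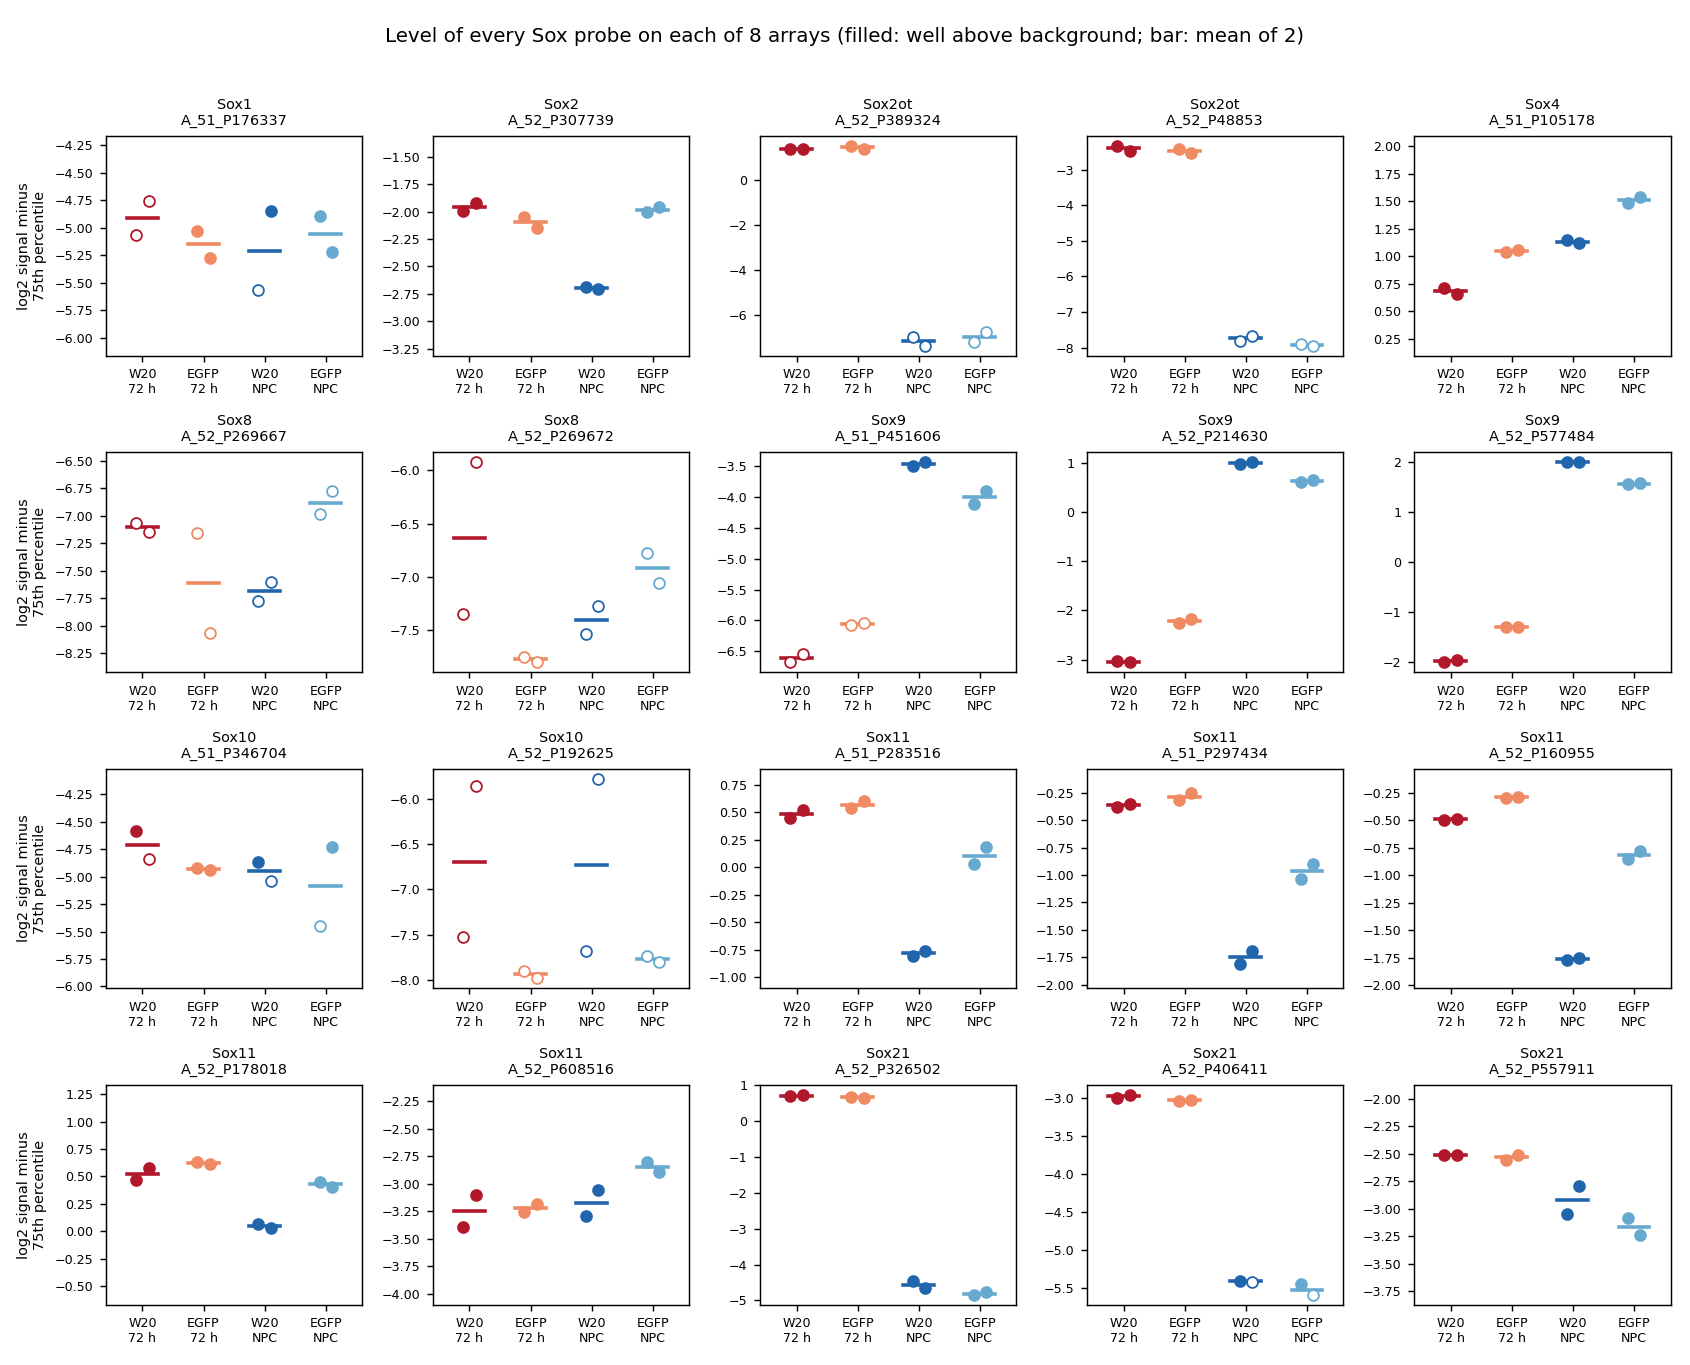
Level of each of the 20 Sox probes on each array, as log2 signal minus the array's 75th percentile (vertical axis, at least 2 log2 units per panel), for W20 and EGFP cells at 72 h and as NPC (horizontal axis). Points are arrays, filled where the probe was well above background, and bars are means of 2 arrays; the Sox2ot and Sox21 probes are higher at 72 h than in NPC, by little on Sox21 A_52_P557911, the Sox9 probes are higher in NPC, and Sox2 is lowest in W20 NPC.

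Over 72 h the Sox transcripts were rearranged in both kinds of cells. Sox2ot and Sox21 rose, Sox11 rose on 4 of 5 probes, Sox9 fell on all 3 probes and Sox4 fell, while the Sox2 probe rose in W20 cells and was at -0.12 ± 0.05 (SE, adjusted p = 0.0854) in EGFP cells. In W20 cells 14 of the 17 tested Sox probes passed, 10 higher and 4 lower at 72 h, where 69.7% of all probes passed (34% higher, 35.7% lower). In EGFP cells 14 passed as well, 9 higher and 5 lower, where 63.4% of all probes passed (32.1% higher, 31.3% lower). The median difference of the Sox probes was 0.47 in W20 cells and 0.19 in EGFP cells, against -0.01 over all probes in each. These counts hold several probes of the same gene, and the bulk RNA cannot separate fewer cells of a type from less RNA per cell. Among the called probes, both of Sox2ot and Sox21 A_52_P406411 passed the filter only through 72 h arrays. Sox9 A_51_P451606 passed it only through NPC arrays. The direction of these probes was thus favoured in advance.

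Sox2ot was not detected in NPC and bright at 72 h. Probe A_52_P389324 had levels of 1.40 and 1.40 in W20 cells and 1.53 and 1.37 in EGFP cells at 72 h, against -6.99 and -7.38 in W20 NPC and -7.20 and -6.77 in EGFP NPC, where no array measured it well above background. The groups of the 2 stages did not overlap, and W20 and EGFP cells did at 72 h. The rise was at least 114-fold in W20 cells (adjusted p = 1.53e-06) and at least 135-fold in EGFP cells (adjusted p = 2.82e-06). Such a bound sets the 72 h mean against the higher of the probe's own signal and the lowest signal well above background on each NPC array. An adjusted p printed beside any bound belongs to the fitted difference of that probe, and the bound itself was not tested. Bounds belong to the main processing, and some alternative ways of processing gave smaller rises than the bound. Over these alternatives the fitted rise of A_52_P389324 ran from 4.87 to 8.78 in W20 cells and from 4.75 to 8.65 in EGFP cells (log2). The second Sox2ot probe, A_52_P48853, was at -2.32 and -2.46 in W20 cells and -2.42 and -2.52 in EGFP cells at 72 h, and was also not well above background in NPC. It rose at least 8.20-fold in W20 cells (adjusted p = 6.04e-07) and at least 8.92-fold in EGFP cells (adjusted p = 9.69e-07). Over the alternatives its fitted rise ran from 1.88 to 5.45 in W20 cells and from 1.61 to 5.51 in EGFP cells (log2). Both probes of this noncoding transcript rose, and neither passed for W20 against EGFP: at 72 h the differences were -0.05 ± 0.18 and 0.08 ± 0.08 (SE).

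Sox2 itself, which lies within the span of Sox2ot, did not follow it. Its only probe, A_52_P307739, had levels of -1.99 and -1.92 in W20 cells and -2.05 and -2.15 in EGFP cells at 72 h, against -2.69 and -2.70 in W20 NPC and -2.005 and -1.96 in EGFP NPC. The 2 W20 NPC arrays were the lowest of the 8 and stood apart from the rest, while the other groups lay close together. Over 72 h the probe rose 1.67-fold in W20 cells (0.74 ± 0.05 SE, adjusted p = 6.16e-05). In EGFP cells the 72 h level was 0.923 times the NPC level, a difference that did not pass.

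Whether this Sox2 probe could read an introduced Sox2 was not tested, because the files give neither its sequence nor its place in the transcript. Values of the other common reprogramming factors stand beside it. Klf4, a zinc finger factor of pluripotency, fell by 1.28 in W20 cells and fell by 0.86 in EGFP cells over 72 h on its probe (log2, SE 0.04, adjusted p = 3.51e-06 and 2.10e-05). The Pou5f1 probe, for Oct4, was well above background on 0 of 8 arrays. The growth regulator Myc had 3 probes that disagreed. A_51_P102096 fell by 3.69 in W20 cells and fell by 1.67 in EGFP cells. A_52_P108346 rose by 3.71 in W20 cells and 3.54 in EGFP cells, and A_52_P278549 by 4.55 in W20 cells and 4.40 in EGFP cells. Probes of a gene can thus move in opposite directions here, and Sox2 has a single probe to read.

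Sox21, the SoxB2 repressor, rose on all 3 probes by very different amounts. Probe A_52_P326502 had levels of 0.69 and 0.72 in W20 cells and 0.67 and 0.64 in EGFP cells at 72 h, against -4.45 and -4.66 in W20 NPC and -4.84 and -4.77 in EGFP NPC. It rose 38.5-fold in W20 cells (5.26 ± 0.07 SE, adjusted p = 5.68e-07) and 44.1-fold in EGFP cells (5.46 ± 0.07 SE, adjusted p = 8.84e-07). Among probes well above background on all 4 arrays of the comparison, this rise stood 12th of 22108 in W20 cells and 7th of 23604 in EGFP cells. Its size depended on the processing: over the alternatives it ran from 3.71 to 5.37 in W20 cells and from 3.61 to 5.51 in EGFP cells (log2). Probe A_52_P406411 rose 5.38-fold in W20 cells and 5.58-fold in EGFP cells, with 1 of 2 NPC arrays well above background in each. Over the alternatives its rise ran from 1.11 to 2.47 in W20 cells and from 0.81 to 2.55 in EGFP cells (log2). Probe A_52_P557911 rose 1.33-fold in W20 cells and 1.55-fold in EGFP cells (adjusted p = 0.0106 and 0.00220). The stages did not overlap on any of these probes in either kind of cell. With 2 arrays per group a lack of overlap is a weak criterion, here and for Sox2ot and Sox9. Its share over all probes was not counted.

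Sox9, the SoxE factor of neural stem cells and astrocytes, fell further in W20 cells than in EGFP cells. Probe A_52_P577484 had levels of -1.997 and -1.964 in W20 cells and -1.29 and -1.30 in EGFP cells at 72 h, against 2.00 and 1.99 in W20 NPC and 1.56 and 1.57 in EGFP NPC. The order of W20 and EGFP cells was therefore reversed between the stages, with no overlap at either. The probe fell 15.7-fold in W20 cells (-3.97 ± 0.03 SE, adjusted p = 2.26e-07) and 7.26-fold in EGFP cells (-2.86 ± 0.03 SE, adjusted p = 6.07e-07). Its fall stood 14th from the lowest of 22108 probes in W20 cells and 36th of 23604 in EGFP cells. Probe A_52_P214630, printed on the array as 10 spots, fell 16.4-fold in W20 cells and 7.20-fold in EGFP cells. The third, A_51_P451606, was not well above background at 72 h and fell at least 3.34-fold in W20 cells and at least 3.36-fold in EGFP cells. Over the alternatives its fitted difference ran from -3.21 to -0.86 in W20 cells and from -2.15 to -0.82 in EGFP cells (log2).

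**Figure D2:**
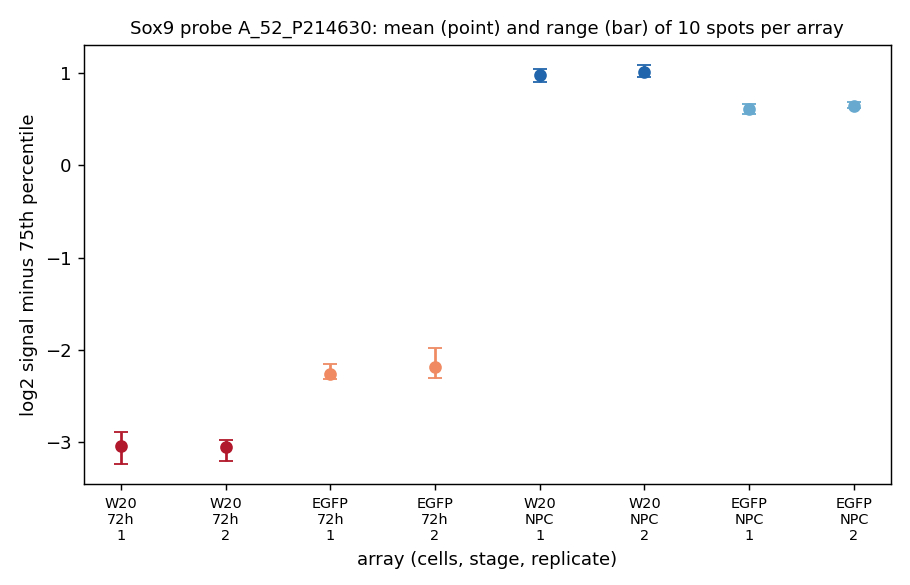
Level of the Sox9 probe A_52_P214630 on each array (vertical axis, log2 signal minus the array's 75th percentile), with arrays along the horizontal axis. Points are means and bars the lowest to highest of 10 spots; the SD of the spots on an array was 0.023 to 0.097, and the spots of W20 and EGFP arrays do not overlap at 72 h or in NPC.

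The repeated spots of A_52_P214630 show how little of these differences lay within an array. At 72 h the spots ran from -3.24 to -2.89 on the W20 arrays and from -2.31 to -1.98 on the EGFP arrays. In NPC they ran from 0.90 to 1.09 on the W20 arrays and from 0.56 to 0.69 on the EGFP arrays. Spots of an array share its RNA and are no replicates of the condition.

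The SoxC factors moved apart. Sox11 probe A_52_P160955 had levels of -0.49 and -0.49 in W20 cells and -0.29 and -0.29 in EGFP cells at 72 h, against -1.77 and -1.76 in W20 NPC and -0.86 and -0.78 in EGFP NPC. It rose 2.41-fold in W20 cells (1.27 ± 0.04 SE, adjusted p = 3.32e-06) and 1.44-fold in EGFP cells (0.53 ± 0.04 SE, adjusted p = 1.02e-04). Probes A_51_P283516, A_51_P297434 and A_52_P178018 rose by 1.27, 1.38 and 0.47 in W20 cells and by 0.46, 0.68 and 0.19 in EGFP cells. The last of these, A_52_P178018 in EGFP cells, was no longer called without EGFP 72 h replicate 1 (adjusted p = 0.0638), without EGFP NPC replicate 2 (adjusted p = 0.0698) or with spike-in scaling (adjusted p = 0.137). The remaining probe, A_52_P608516, went the other way: it was -0.08 ± 0.12 in W20 cells and fell by 0.37 ± 0.12 in EGFP cells (SE, adjusted p = 0.602 and 0.0398). The EGFP fall ended when either array of EGFP cells was left out at either stage, with adjusted p of 0.0887 to 0.148. Sox4 had levels of 0.71 and 0.66 in W20 cells and 1.03 and 1.06 in EGFP cells at 72 h, against 1.15 and 1.12 in W20 NPC and 1.48 and 1.54 in EGFP NPC. It fell by 0.45 in W20 cells and fell by 0.46 in EGFP cells (log2, SE 0.04, adjusted p = 1.99e-04 and 2.36e-04).

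Sox1 and Sox10 stayed near the limit of detection. The probe of Sox1, a SoxB1 factor like Sox2, was well above background on 5 of 8 arrays with levels of -5.57 to -4.76, and the Sox10 probe A_51_P346704 on 5 of 8 arrays too. Neither passed in any of the 5 comparisons. At this signal a fall or a small change could go unseen, so the lack of a call is not evidence of a constant level. No array showed a large rise of either probe, with Sox10 levels of -5.45 to -4.59.

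**Figure D3:**
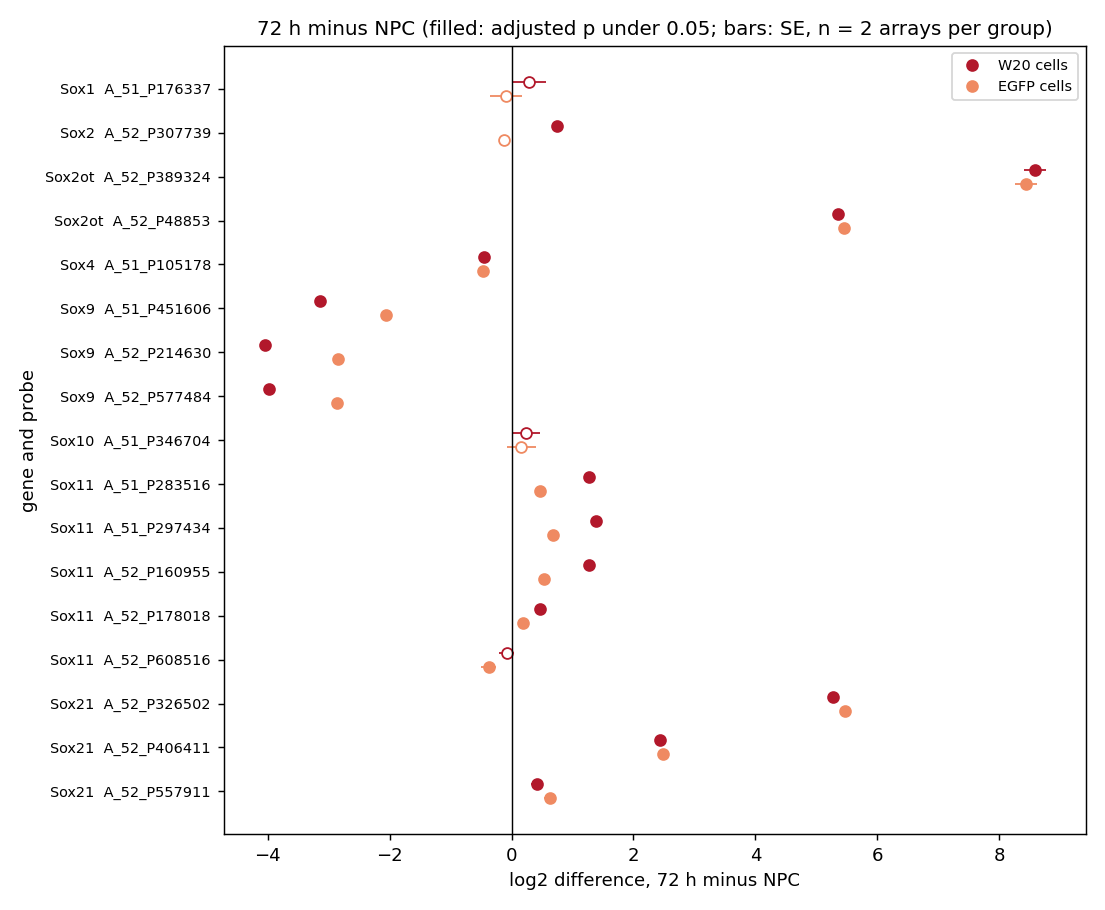
Log2 difference, 72 h minus NPC, of the 17 tested Sox probes (horizontal axis) in W20 and EGFP cells, by gene and probe (vertical axis). Points are filled where adjusted p is under 0.05 and bars are SE, n = 2 arrays per group; differences from probes not well above background in a group are fitted values, not bounds, and Sox9 lies furthest left with -4.04 in W20 cells.

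Sox2, Sox4 and Sox11 were lower in W20 NPC than in EGFP NPC, Sox9 was higher, and Sox21 was higher on 1 of 3 probes. Of the 17 tested Sox probes 10 passed, 4 higher and 6 lower in W20 NPC, where 45.8% of all probes passed (26.6% higher, 19.2% lower). Their median difference was -0.15, against 0.05 over all probes. With the share of all probes that passed this high, the count says little about the Sox genes as a group, and the sizes of single genes are given instead.

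Sox2 was 1.64-fold lower in W20 NPC, with a difference of -0.71 ± 0.05 (SE, adjusted p = 4.34e-04). Its levels in W20 NPC averaged -2.70 ± 0.008 and in EGFP NPC -1.98 ± 0.03 (SD, n = 2 each). Sox11 was lower on 4 of 5 probes, with log2 differences of -0.94 to -0.38 and adjusted p of 1.50e-04 to 0.00205, and the largest difference, -0.94 ± 0.04 on A_52_P160955, was a 1.92-fold lower signal. Its remaining probe, A_52_P608516, had -0.33 ± 0.12 (adjusted p = 0.0762). Sox4 was 1.30-fold lower (-0.38 ± 0.04 SE, adjusted p = 0.00130). Sox9 was higher by 0.36, 0.43 and 0.54 on its 3 probes, with adjusted p of 4.84e-04 to 0.00371; the value on A_51_P451606 was 0.18 (adjusted p = 0.199) with another background correction. Sox21 probe A_52_P326502 was higher by 0.25 ± 0.07 (adjusted p = 0.0388), a call that ended in 13 of 19 alternatives and turned to -0.06 with another background correction.

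At 72 h only 5 of the 17 tested Sox probes passed, all lower in W20 cells, where 42.5% of all probes passed (23.3% higher, 19.2% lower). Their median difference was -0.05, against 0.04 over all probes. The clearest was Sox9, lower with differences of -0.83 ± 0.04 on A_52_P214630 and -0.69 ± 0.03 on A_52_P577484 (SE, adjusted p = 1.89e-04 and 1.65e-04). A_51_P451606 was counted as well, but was not well above background in either kind of cell at 72 h and has no fold there; its difference was 0.14 (adjusted p = 0.303) with another background correction. Sox4 was lower, with -0.36 ± 0.04 (SE, adjusted p = 0.00165), close to its difference in NPC. Of the Sox11 probes A_52_P160955 was lower, with -0.20 ± 0.04 (SE, adjusted p = 0.00898), and the other 4 had differences of -0.10 to -0.03. That call ended with spike-in scaling (adjusted p = 0.125) and with another background correction (adjusted p = 0.0843). Sox2 was 0.14 ± 0.05 higher, without passing (adjusted p = 0.0649). It passed in 3 of 18 alternatives, among them quantile normalization (adjusted p = 0.0399). The 3 Sox21 probes had differences of 0.02 to 0.05.

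**Figure D4:**
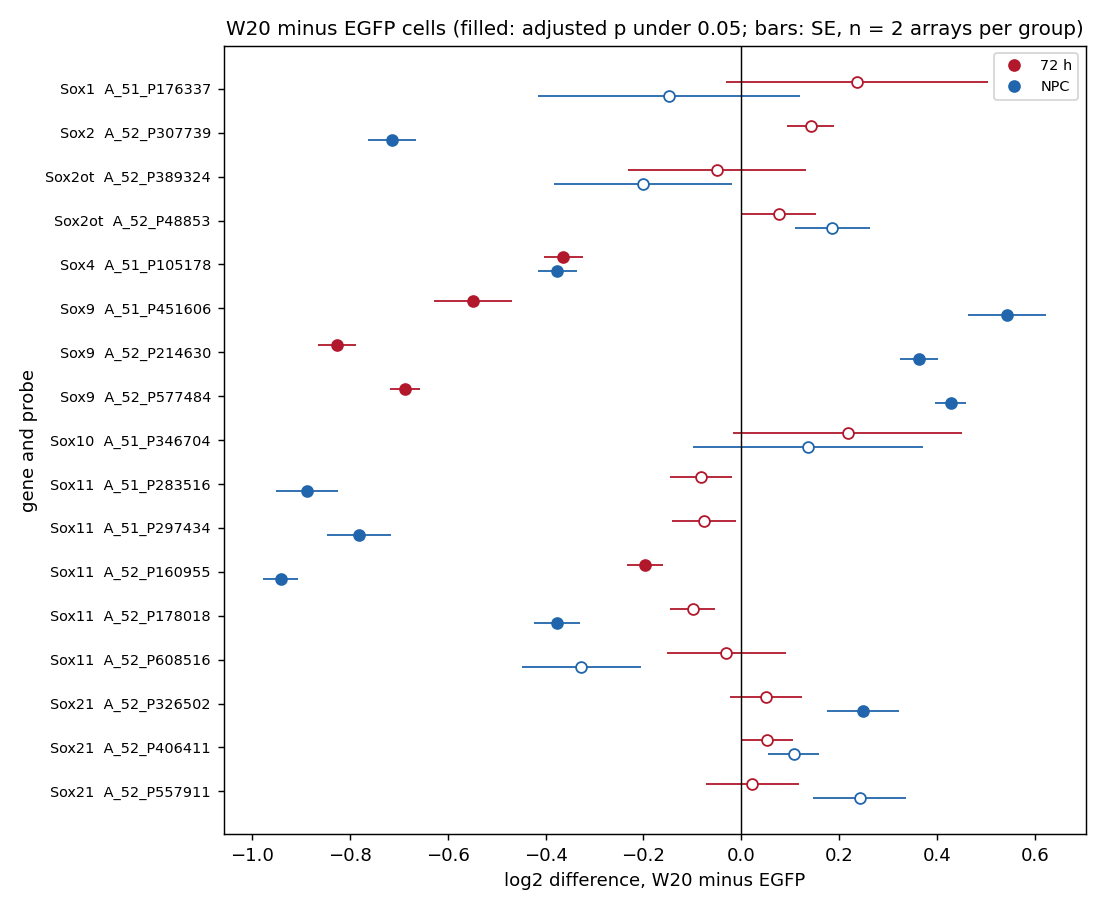
Log2 difference, W20 minus EGFP cells, of the 17 tested Sox probes (horizontal axis) at 72 h and in NPC, by gene and probe (vertical axis). Points are filled where adjusted p is under 0.05 and bars are SE, n = 2 arrays per group; the Sox9 probes lie left of 0 at 72 h and right of it in NPC, and the Sox2 probe and 3 Sox11 probes lie furthest left in NPC.

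The W20 effect differed between the stages for Sox2, Sox9 and Sox11. This was tested directly, as the W20 difference at 72 h minus that in NPC, where 21.9% of all probes passed (10.3% higher, 11.6% lower) and 8 of the 17 Sox probes did, 5 higher and 3 lower. For Sox2 it was 0.86 ± 0.07 (SE, adjusted p = 0.00165). For Sox9 it was -1.19 ± 0.06, -1.11 ± 0.04 and -1.09 ± 0.11 on A_52_P214630, A_52_P577484 and A_51_P451606, with adjusted p of 4.82e-04 to 0.00315. A_51_P451606 was not well above background at 72 h, and its value was -0.03 (adjusted p = 0.877) with another background correction. For Sox11 it was 0.70 to 0.81 on 3 probes and 0.28 on A_52_P178018, whose call (adjusted p = 0.0355) ended in 12 of 17 alternatives. Sox4 showed no such difference at this precision (0.01 ± 0.06, adjusted p = 0.899), and the Sox2ot and Sox21 differences of -0.22 to 0.15 did not pass. The median over the Sox probes was 0.08, against -0.02 over all probes.

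Markers of other cell types also differed between W20 and EGFP cells. Of all probes, 42.5% passed at 72 h (23.3% higher, 19.2% lower) and 45.8% in NPC (26.6% higher, 19.2% lower). Marker counts near these shares, here and in the next paragraphs, say little about a cell type. The 7 mesenchymal markers (Col1a1, Col1a2, Col3a1, Lum, Postn, Thy1 and Twist1) were tested, of which 6 were lower in W20 cells at 72 h and 7 in W20 NPC. Lum passed the filter only through the EGFP NPC arrays, so its lower level in W20 NPC was favoured in advance. The summed level of the 7 was 6.49 to 6.54 in W20 cells and 7.09 to 7.12 in EGFP cells at 72 h, against 6.64 to 6.68 in W20 NPC and 7.20 to 7.39 in EGFP NPC. That sum is mostly Col1a2, at 6.32 to 6.37 in W20 cells and 6.88 to 6.92 in EGFP cells at 72 h. In NPC Col1a2 was at 6.50 to 6.54 in W20 cells and 6.955 to 7.14 in EGFP cells. The median difference of the 7 was -0.56 at 72 h and -1.49 in NPC.

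Among astrocyte markers 2 of 4 were tested, and Aqp4 and Slc1a2 were not for want of signal. At 72 h the called Gfap difference has no fold, since neither kind of cell was well above background. Gfap, the astrocyte filament gene, was well above background only in EGFP NPC, at -5.23 to -5.09, against -7.76 to -7.35 in W20 NPC, which is at least 1.21-fold lower in W20 NPC (adjusted p = 0.00882). It passed the filter only through EGFP NPC, so a lower level in W20 NPC was favoured in advance. The summed level of the astrocyte list, -0.29 to -0.27 in W20 cells and -0.37 to -0.25 in EGFP cells at 72 h, against 0.78 to 0.85 in W20 NPC and 0.88 to 0.92 in EGFP NPC, is nearly all Aldh1l1 and does not show Gfap.

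Of 3 tested neuron markers, 1 was higher in W20 cells at 72 h, and 1 was higher and 1 lower in W20 NPC. Their list summed to 1.19 to 1.38 in W20 cells and 0.63 to 0.66 in EGFP cells at 72 h, against -0.11 to -0.08 in W20 NPC and 0.36 to 0.44 in EGFP NPC. Of 4 tested oligodendrocyte lineage markers, 1 was higher and 1 lower in W20 cells at 72 h, and 2 were lower in W20 NPC. The sums of that list were 2.14 to 2.17 in W20 cells and 1.80 to 1.86 in EGFP cells at 72 h, against 1.03 to 1.09 in W20 NPC and 1.16 to 1.17 in EGFP NPC. Its defining factors Olig1 and Olig2 were well above background on 0 of 8 arrays. Of 3 tested pluripotent markers, 2 were lower in W20 cells at each stage, with sums of -1.36 to -1.31 in W20 cells and -0.98 to -0.91 in EGFP cells at 72 h, against -0.82 on both W20 NPC arrays and -0.38 on both EGFP NPC arrays.

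Of 4 tested neural crest markers, 1 was lower in W20 cells at 72 h, and 1 was higher and 2 lower in W20 NPC. Of 2 tested endothelial markers, 1 was higher and 1 lower at 72 h and neither passed in NPC, and the 1 tested immune marker passed at neither stage. The part of any of these cells in the Sox values was not tested.

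Genes known to work with or downstream of Sox factors were counted on 1 probe per gene, and a rise or fall "by" a value is a log2 difference. Over 72 h 69.7% of all probes passed in W20 cells and 63.4% in EGFP cells, and a count near these shares says little about its list. A gene well above background at 1 stage only passed the filter through that stage, which favoured its direction in advance. Of 7 tested other Sox genes, 2 rose and 3 fell over 72 h in both kinds of cells. Sox6, a SoxD factor that restrains oligodendrocyte maturation, rose at least 34.3-fold in W20 cells and at least 27.1-fold in EGFP cells. Sox13, another SoxD factor, rose by 4.93 in W20 cells and by 4.60 in EGFP cells. Sox7, a SoxF factor of endothelium, fell by 1.60 in W20 cells (1 of 2 arrays well above background at 72 h) and fell by 0.84 in EGFP cells, and Sox15 fell by 0.69 in W20 cells and fell by 0.73 in EGFP cells. Among 10 tested POU, Pax and other partners, 4 rose and 5 fell in each. Pax6, a partner of Sox2 in eye and forebrain, rose by 2.19 in W20 cells and 2.01 in EGFP cells, and the pluripotency receptor Esrrb fell at least 4.61-fold in W20 cells and fell by 2.61 in EGFP cells.

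The lists of described targets moved in both directions. Of 21 tested genes described as Sox2 or SoxB1 targets or regulators, 8 rose and 9 fell over 72 h in W20 cells, and 6 rose and 12 fell in EGFP cells. Fabp7, a radial glia lipid carrier, rose at least 7.15-fold in W20 cells, and Hmga2, a chromatin protein of young stem cells, fell by 2.47 in W20 cells and fell by 2.03 in EGFP cells. Of 11 tested SoxC and neuronal genes, 8 rose and 1 fell in W20 cells, and 7 rose and 2 fell in EGFP cells. The median difference was 1.73 in W20 cells and 1.12 in EGFP cells. Elavl3, Elavl4, Gap43 and Neurog2 were well above background on no NPC array and passed the filter only through 72 h arrays. A rise was thus favoured in advance for them, so these counts and this median are not set against all probes. Of 14 tested SoxE and glial genes, 6 rose and 6 fell in W20 cells, and 5 rose and 7 fell in EGFP cells. Among them S100b, a glial calcium-binding protein, fell by 2.04 in W20 cells and fell by 1.70 in EGFP cells.

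The same lists were also counted between W20 and EGFP cells, where 42.5% of all probes passed at 72 h and 45.8% in NPC. A count near these shares again says little about its list. A gene well above background in 1 group only passed the filter through that group, which favoured its direction in advance. Hes5, well above background only in EGFP cells at 72 h, was such a gene. At 72 h, W20 cells had 3 of the 21 SoxB1 genes higher and 6 lower, with the EGF receptor Egfr at -1.47. In NPC, 4 were higher and 8 lower, led by Cdkn1a, the cell cycle inhibitor p21, with a difference of 1.09, and Mycn, with a difference of -3.29 and 1 of 2 W20 arrays well above background. Cdkn1a stood apart at 72 h too, at 2.28 to 2.33 in W20 cells against 1.175 to 1.186 in EGFP cells. Egfr did so in NPC, at -0.98 to -0.94 in W20 NPC against 0.50 to 0.60 in EGFP NPC. Of the 11 SoxC genes, 5 were higher at 72 h, and 3 were higher and 2 lower in NPC. The neuronal tubulin Tubb3 was higher by 0.95 and the RNA-binding protein Elavl3 by 1.59 at 72 h. Of the 14 SoxE genes, 5 were higher and 4 lower at 72 h, and 3 were higher and 5 lower in NPC. Slc1a3, a glial glutamate transporter, was lower, with -1.28 at 72 h and -1.21 in NPC. Col2a1, a collagen controlled by Sox9 in cartilage, was lower as well, with -0.64 at 72 h and -1.60 in NPC.

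For the 5 members whose brightest probe was well above background on all 8 arrays, the genes with the most similar course were sought among 12155 genes, as the smallest root mean square difference over the 8 arrays after centring. The nearest to Sox2 were Plppr3 (0.066), Ank3 (0.070) and Sh3gl3 (0.074). The nearest to Sox9 were Abcg1 (0.130), Stab1 (0.138) and Etv4 (0.145), and to Sox21 Prkcb (0.191), Parm1 (0.213) and Mid2 (0.219). Sox4 was closest to Rdh10 (0.035), Zfp580 (0.038) and Nagk (0.042), and Sox11 to Tshz1 (0.034), Crebl2 (0.036) and Dsel (0.045). The Sox11 probe used was A_52_P178018, which rose by 0.47 over 72 h in W20 cells. There A_51_P283516, A_51_P297434 and A_52_P160955 rose by 1.27 to 1.38 and A_52_P608516 was at -0.08, so other Sox11 probes may have other neighbours. These arrays share their groups, so likeness here mostly describes 4 group means.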

How the data were processed

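RNA of 8 samples was measured on 1-colour arrays. The deposited scanner files hold spot intensity on a linear scale, which the authors' Agilent Feature Extraction (version 10.7.3.1 in the file headers) had already corrected for background. Their log2 minus each array's 75th percentile was used, with spots of a probe averaged and outlier spots left out. Genes were named by matching accessions to RefSeq (27584 of 41174 probes). The deposited value table holds the authors' log2 values: its NPC columns equalled the arrays within 0.01 after a shift, but its 72 h columns held means of arrays, so it served only as an alternative in NPC. One mean per group was fitted with limma 3.58.1 in R 4.3.3 (4 residual and 1.56 prior degrees of freedom), two-sided, and was tested on simulated data. Arrays with the same replicate number deviated together in some pairs of groups (correlations of 0.223 to 0.255) and not in those with W20 NPC (-0.142 to -0.0501), so the numbers were not taken to pair the arrays, and the block is an alternative. The members, gene lists and tests were chosen with earlier results of these data known. List genes named are the 2 with the largest rise or fall that passed, or some of them. Alternatives were other scalings, background correction, filters, probe choice, fits and leaving out arrays. The number of arrays limits the precision.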

Additional observations from a re-analysis of the deposited data

Results flagged for a closer look

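The difference between W20 and EGFP cells was not the same at 72 h and in NPC, by the test of that difference itself, for 8 Sox probes. On the log2 scale the W20 difference at 72 h minus that in NPC was 0.86 for Sox2 A_52_P307739. It was -1.09 for Sox9 A_51_P451606, -1.19 for Sox9 A_52_P214630 and -1.11 for Sox9 A_52_P577484. It was 0.81, 0.70, 0.74 and 0.28 for Sox11 A_51_P283516, A_51_P297434, A_52_P160955 and A_52_P178018. The value of Sox9 A_51_P451606 was -0.03 (adjusted p = 0.877) with normexp background correction, and this probe was not well above background at 72 h. Stage and slide cannot be told apart.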

How the results depend on the processing

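Of 1421 values of tested Sox probes under alternatives, 1369 kept their side of the threshold, 38 lost the call, 12 gained one and 2 called differences reversed. Uncalled values that changed sign and stayed uncalled are among the 1369. Sox1 in NPC, for example, ran from -0.51 to 0.21 over 18 alternatives. Both reversals came with normexp on the spot median, an alternative chosen after seeing the data because the files hold no mean signal: Sox21 A_52_P326502 in NPC (-0.057, adjusted p = 0.708) and Sox9 A_51_P451606 at 72 h (0.14, adjusted p = 0.303). The cause was not tested. Over all probes, spike-in scaling gave 5992 calls for W20 in NPC, 4843 at 72 h (37.2% higher, against 54.9%) and 1884 for the difference. Without a filter there were 16532 at 72 h (72.9% higher) and 2913 for the difference, and normexp gave 3611 for the difference (57.5% higher, against 47.1%) and 3 Sox probes at 72 h. With the brightest probe per gene, which tests fewer probes, calls were 7564 in NPC, 7190 at 72 h, 9523 over 72 h in EGFP cells and 10170 in W20 cells, with 5, 3, 5 and 6 Sox probes, and 3 for the difference.

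Leaving out each array in turn gave 8031 to 11758 calls (9 to 10 Sox probes) in NPC, 7345 to 10017 (5 throughout) at 72 h, 13841 to 16525 (12 to 14) over 72 h in EGFP cells, 15697 to 17471 (14 to 15) in W20 cells and 3142 to 4291 (7 to 8) for the difference, against 5623 with all arrays. Without EGFP 72 h replicates 1 and 2 the difference had 3142 and 3493 calls, without W20 NPC replicates 1 and 2 it had 3462 and 3369, and without EGFP NPC replicates 1 and 2 it had 3572 and 3394. With the replicate number as a block, calls were 11601, 10664, 16374, 17989 and 5127, with 9, 5, 14, 14 and 7 Sox probes. The block ended the calls of Sox21 A_52_P326502 in NPC (adjusted p = 0.0567) and Sox11 A_52_P178018 for the difference (adjusted p = 0.0603); by the labels the samples share only a number. The planned normexp on mean signals was not run, and a slide block could not be fitted beside the stages.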
